A study of Mus musculus with 18 samples.

Results

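Loss of ERH and loss of SAFB were compared directly in 12 of the 18 small RNA libraries of the series, 6 from cells with an Erh knockout against 6 from cells with a combined knockout of Safb and Safb2 (called SAFB1+2 in the labels and SAFB here). All 1006 miRNA entries of the deposited count table were considered, and 273 had enough counts to be tested. The 6 libraries of the control genotype are given beside them as the level in cells with both cofactors.

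The Microprocessor, made of the nuclease Drosha and its partner DGCR8, cuts primary transcripts into miRNA hairpins that Dicer then turns into mature miRNAs. Some hairpins are poor substrates and are cut well only when a good hairpin stands beside them on the same transcript, which is called cluster assistance. ERH, a small dimeric protein that binds DGCR8, and SAFB, a nuclear RNA-binding protein, are both cofactors of this step, and the pair of mir-15a with its helper mir-16 is the model substrate. Mature miRNAs find targets mainly through the seed, bases 2 to 8.

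The cells were Baf3, a mouse pro-B line grown in interleukin-3 (DSMZ ACC300), and all carried fluorescent reporters for altered forms of miR-15a and miR-16. Cas9 was introduced with 1 of 2 guides per genotype, against Erh, against Safb and Safb2 together, or against Rag1 in the control. After puromycin selection, knockout cells were sorted as polyclonal populations on derepression of a dsRed reporter of miR-15a, and regrown; how the control cells were sorted was not given in the sources used here. The labels name 3 batches, and every guide population has 1 library in each. The 6 libraries of a genotype therefore stand for 2 edited populations. The mRNAs of the targeted genes were not measured, and knockout completeness is therefore not checked here. The ERH guides matched coding sequence of Erh at chr12:80634452-80634471 and chr12:80634433-80634452 (GRCm38), so the sites overlap. Each SAFB guide matched coding sequence of both Safb and Safb2 on chromosome 17.

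The comparison turns on pairs of miRNAs that lie next to each other, and in several of them both members carry the same seed. Mature sequences from RefSeq (GRCm38.p6) are shown for members with a shared seed and for some other miRNAs described below, with the seed in capitals. The counts do not separate the arms of a hairpin, and 1 arm is shown.
miR-15a-5p: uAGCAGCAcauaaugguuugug
miR-16-5p: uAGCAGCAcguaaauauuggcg
miR-15b-5p: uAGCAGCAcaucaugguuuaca
miR-181a-5p: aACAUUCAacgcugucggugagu
miR-181b-5p: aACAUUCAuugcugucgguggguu
miR-29b-3p: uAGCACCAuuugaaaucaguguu
miR-29c-3p: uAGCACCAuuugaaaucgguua
miR-19a-3p: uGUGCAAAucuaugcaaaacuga
miR-19b-3p: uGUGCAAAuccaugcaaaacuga
miR-25-3p: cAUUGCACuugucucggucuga
miR-92a-3p: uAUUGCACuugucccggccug
miR-425-5p: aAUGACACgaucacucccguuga
miR-192-5p: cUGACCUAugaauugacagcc
miR-194-5p: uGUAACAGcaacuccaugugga
miR-218-5p: uUGUGCUUgaucuaaccaugu
miR-9-5p: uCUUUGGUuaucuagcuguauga
miR-10a-5p: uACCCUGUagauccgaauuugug
miR-223-3p: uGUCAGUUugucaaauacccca
miR-15a, miR-16 and miR-15b share the seed AGCAGCA. The 181a and 181b sequences share ACAUUCA, 29b and 29c share AGCACCA, 19a and 19b share GUGCAAA, and 25 and 92a share AUUGCAC. Reads of miR-29b and miR-29c, or of miR-19a and miR-19b, differ at few bases, so their split between entries is uncertain. The same limit applies to members of the let-7 family. It may also apply to other related entries whose sequences are not shown, such as mir-23a with mir-23b and mir-27a with mir-27b.

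Hairpins of 6 neighbouring pairs whose ratio passed the test between the knockouts are shown next, from the same source, with annotated mature arms in capitals.
Mir181a-1: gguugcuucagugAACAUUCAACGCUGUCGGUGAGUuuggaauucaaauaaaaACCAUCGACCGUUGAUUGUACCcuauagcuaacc
Mir181b-1: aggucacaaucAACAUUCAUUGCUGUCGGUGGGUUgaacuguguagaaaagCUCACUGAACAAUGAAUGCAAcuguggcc
Mir29b-2: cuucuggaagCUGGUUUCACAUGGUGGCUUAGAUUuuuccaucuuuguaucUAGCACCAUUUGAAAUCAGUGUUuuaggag
Mir29c: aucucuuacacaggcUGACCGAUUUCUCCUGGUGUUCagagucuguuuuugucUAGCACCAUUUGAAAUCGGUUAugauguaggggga
Mir194-2: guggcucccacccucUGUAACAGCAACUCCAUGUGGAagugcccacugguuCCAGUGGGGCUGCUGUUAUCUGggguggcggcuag
Mir192: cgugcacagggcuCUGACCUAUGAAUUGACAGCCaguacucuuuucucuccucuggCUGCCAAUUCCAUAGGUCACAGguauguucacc
Mir374b: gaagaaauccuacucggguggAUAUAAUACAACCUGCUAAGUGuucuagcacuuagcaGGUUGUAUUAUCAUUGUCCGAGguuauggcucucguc
Mir421: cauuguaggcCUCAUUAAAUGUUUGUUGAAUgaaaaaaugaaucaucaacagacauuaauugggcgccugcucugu
Mir191: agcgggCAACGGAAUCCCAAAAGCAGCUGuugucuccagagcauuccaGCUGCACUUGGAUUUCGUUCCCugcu
Mir425: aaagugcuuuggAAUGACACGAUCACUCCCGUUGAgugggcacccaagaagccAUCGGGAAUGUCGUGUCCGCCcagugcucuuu
Mir19a: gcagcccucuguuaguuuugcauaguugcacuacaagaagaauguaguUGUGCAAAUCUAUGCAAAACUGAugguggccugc
Mir20a: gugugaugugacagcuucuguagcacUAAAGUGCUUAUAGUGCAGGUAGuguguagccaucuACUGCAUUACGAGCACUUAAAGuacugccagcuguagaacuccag
The first pair lies at chr1:137966455-137966541 and chr1:137966639-137966718 on the plus strand, in an exon of the lincRNA gene A430106G13Rik; a second copy of the pair lies on chromosome 2. Mir29b-2 (chr1:195037040-195037120) and Mir29c (chr1:195037547-195037634) lie in exons of the noncoding transcript A330023F24Rik, plus strand. Mir194-2 (chr19:6264643-6264728) and Mir192 (chr19:6264844-6264932), plus strand, have no annotated host on their strand. Mir374b (chrX:103573060-103573154) and Mir421 (chrX:103572921-103572996), minus strand, are in an intron of Ftx. Mir191 (chr9:108568319-108568392) and Mir425 (chr9:108568777-108568861), plus strand, are in exons of 4833445I07Rik. Mir19a (chr14:115044000-115044081) and Mir20a (chr14:115044157-115044263), plus strand, lie in Mir17hg, the host of the mir-17-92 polycistron. Folding energy per base did not put the same member first in each pair. It was -0.373 kcal/mol for mir-425 against -0.473 for mir-191, and -0.395 for mir-421 against -0.459 for mir-374b, but -0.395 for mir-29c against -0.384 for mir-29b-2.

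ERH and SAFB knockout cells differed in 108 of 273 tested miRNAs, 39.6% of those tested (edgeR, adjusted p under 0.05). After scaling by the trimmed mean of M-values (TMM), 65 miRNAs (23.8%) were higher in ERH than in SAFB libraries and 43 (15.8%) were lower. The higher calls had a median level of 72.3 CPM (counts scaled to library size) and 42 of 65 exceeded 1 on the log2 scale. The lower calls had a median level of 1480 CPM, and 4 of 43 were lower by more than 1 on that scale. The groups did not overlap for 56 of the called miRNAs (20.5% of those tested).

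The direction of the calls varied with the level in control. Of 107 miRNAs under 10 CPM in control, 31 were higher and 5 lower in ERH. Of 65 miRNAs at 1000 CPM or more, 8 were higher and 27 lower. Their median log2 fold changes were 0.23 and -0.13.

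**Figure D1:**
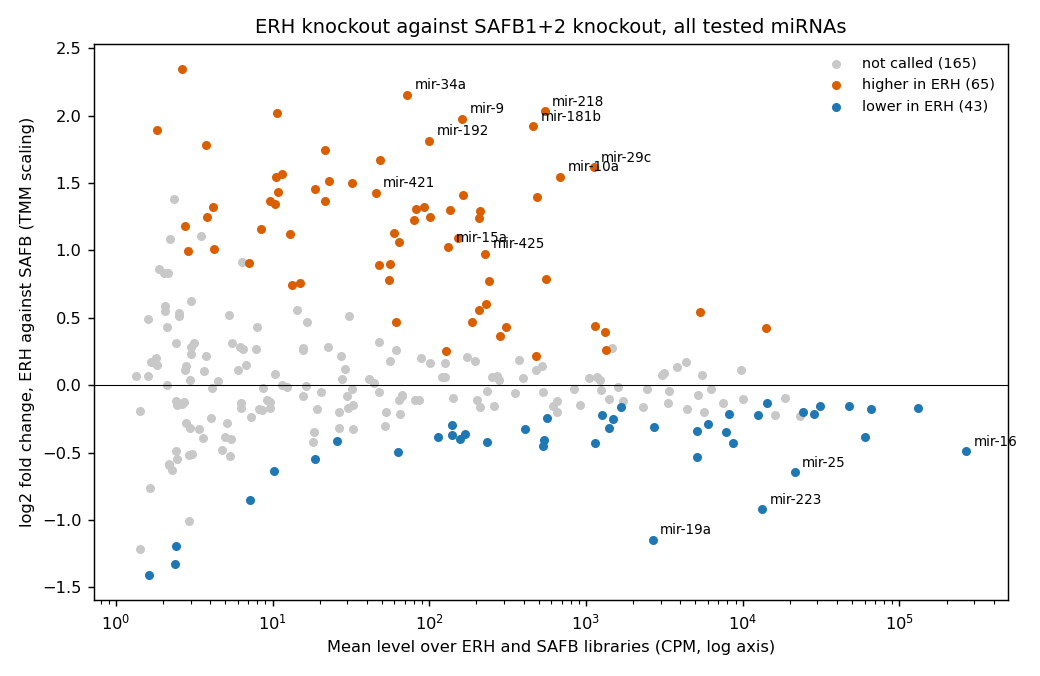
Each point is 1 of the 273 tested miRNAs, placed by its mean level over the ERH and SAFB libraries (CPM, log axis) and its log2 fold change in ERH against SAFB under TMM scaling. The 65 higher calls spread over low and high levels and reach 2.34, while most of the 43 lower calls lie close to 0 at high levels; under spike-in scaling 1 miRNA, mir-19a, is called lower.

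Most lower calls depended on scaling, and the higher calls did not. Scaling by total miRNA counts gave 115 higher (42.1%) and 8 lower (2.93%), and scaling by spike-in counts gave 111 (40.7%) and 1 (0.366%). All 65 higher calls held under the 3 scalings, and of the 43 lower calls only mir-19a did, 66 miRNAs in all (24.2%). The median of all log2 fold changes was 0.04 with TMM, 0.31 with scaling by totals and 0.57 with spike-ins. The ratio of miRNA to spike-in counts, which relates miRNA to a fixed addition per amount of total RNA, was 8.69 ± 0.42 (log2, SD, n = 6) in ERH and 8.44 ± 0.21 (SD, n = 6) in SAFB libraries. The difference of 0.25 did not exceed the spread (exact permutation test, two-sided, p = 0.236), and was 0.07, 0.67 and 0.0023 in the 3 batches. The ERH guide 2 population exceeded guide 1 by 0.59 in this ratio. Leaving out single libraries gave a difference between ERH and SAFB of 0.14 to 0.37. Without ERH guide 1 that difference passed the test, and without ERH guide 2 its sign turned (values in the last section).

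**Figure D2:**
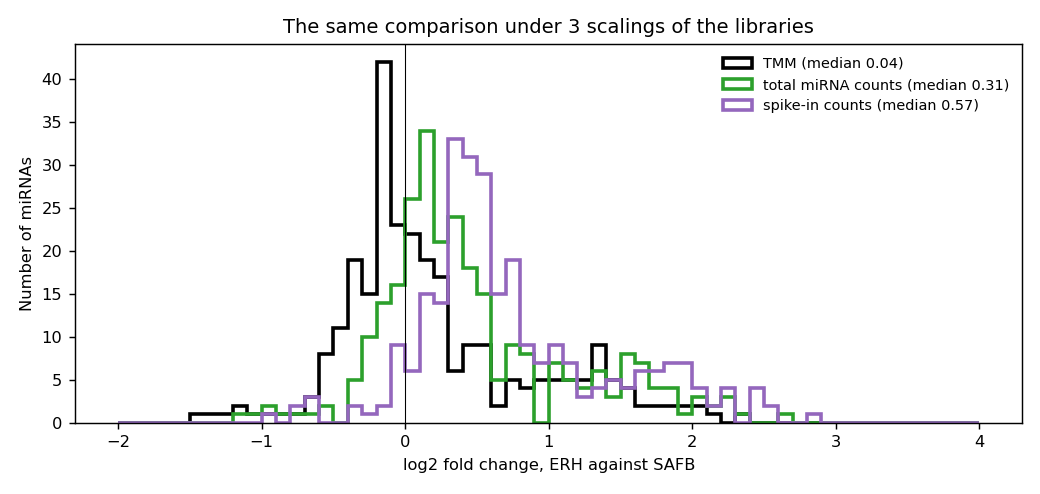
Histogram of log2 fold changes (ERH against SAFB) of the 273 tested miRNAs under 3 scalings of the libraries. The distribution shifts right from a median of 0.04 (TMM) to 0.31 (total miRNA counts) and 0.57 (spike-in counts), which turns most lower calls under TMM into values near or above 0.

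Sequencing depth of the 12 libraries was 2699323 to 4470073 miRNA counts, with 410 to 454 entries detected. The 273 tested entries held at least 99.9821% of the miRNA counts of each library. TMM factors were 0.914 to 0.985 in SAFB and 1.07 to 1.20 in ERH libraries. mir-16 alone took 29.6% ± 0.729 of SAFB counts and 25.3% ± 0.633 of ERH counts (SD, n = 6). Between the guides of a genotype, 1 of 273 miRNAs, mir-218, was called for ERH (0.366%, with 18 or 6.59% at an unadjusted p under 0.05), and 0 of 273 for SAFB (10 or 3.66% unadjusted, edgeR). The comparisons of 1 ERH with 1 SAFB population gave 71 (26%) and 75 (27.5%) calls for ERH guide 1, and 65 (23.8%) and 70 (25.6%) for ERH guide 2.

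Ratios between neighbouring miRNAs need no scaling, because both are counted in the same library. Of 66 pairs within 10 kb on 1 strand, 38 (57.6%) differed between the knockouts (exact permutation test over 924 arrangements, two-sided, adjusted over the 66 pairs). The groups did not overlap in 24 pairs (36.4%). Pairs of 1 chain of neighbours share members and are not independent, and 14 of 21 chains held a called pair. Fewer pairs were called without the SAFB guide 1 population, where fewer libraries were tested (last section). All 38 kept their direction in each of 3 batches and in all 4 population comparisons. With whole populations as the unit, 2 against 2, the smallest possible p would be 0.333, so the p-values speak to the spread between libraries only.

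The assisted hairpin mir-15a was lower than control in both knockouts, and lower in SAFB than in ERH. It measured 139 to 225 CPM (median 171) in the ERH libraries and 73.3 to 108 CPM (median 82.5) in the SAFB libraries, without overlap, beside 947 to 1146 CPM in control. The log2 fold change in ERH against SAFB was 1.02 ± 0.13 (SE, adjusted p = 1.17e-06). Against control it was -3.61 in SAFB and -2.59 in ERH. The log2 ratio of mir-15a to mir-16 ran from -10.73 to -9.81 with a median of -10.31 in the ERH libraries and from -12.05 to -11.51 with a median of -11.87 in the SAFB libraries, and was -7.98 ± 0.12 (SD, n = 6) in the control libraries. The difference was 1.50 (exact permutation test, adjusted p = 0.00595), so the pair held more mir-15a in ERH than in SAFB libraries. The populations were sorted on a miR-15a reporter, so a low mir-15a in both is part of how the cells were picked; the entry mir-16 sums 2 gene copies.

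mir-425, neighbour of the abundant mir-191, showed the same order. Its level was 199 to 382 CPM (median 296) in the ERH libraries and 133 to 173 CPM (median 157) in the SAFB libraries, without overlap, against 3072 to 4609 CPM in control, and the log2 fold change was 0.97 ± 0.14 (SE, adjusted p = 6.03e-06). Against control it fell by 4.69 on the log2 scale in SAFB and by 3.72 in ERH. The mir-425 to mir-191 ratio ran from -6.69 to -5.54 with a median of -6.20 in the ERH libraries and from -7.67 to -6.66 with a median of -7.43 in the SAFB libraries, so the groups overlapped by a narrow margin. The difference was 1.16 (exact permutation test, adjusted p = 0.0138), and the adjusted p was 0.0507 without the ERH guide 1 population, 0.0524 without SAFB guide 1 and 0.0898 without SAFB guide 2 (exact permutation tests). mir-191 itself did not pass the test (-0.23 ± 0.11, adjusted p = 0.11).

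mir-15b was also compared with mir-16, since it has the seed of mir-15a and lies beside the other mir-16 copy. Its ratio to mir-16 averaged -8.76 ± 0.23 in ERH and -9.00 ± 0.17 in SAFB (SD, n = 6), against -5.76 ± 0.16 (SD, n = 6) in the control libraries. The difference of 0.24 (exact permutation test, adjusted p = 0.0997) missed the threshold. The level of mir-15b in ERH against SAFB was -0.24 ± 0.09 (SE, adjusted p = 0.0371) under TMM, 0.02 with total counts and 0.31 with spike-ins, so its sign turned with the scaling. Against control the ratio was lower by 3.24 in SAFB and by 2.99 in ERH on the log2 scale. Whether the mir-15a and mir-15b ratios differ from each other in this contrast was not tested. mir-451a and mir-144, the other classic assisted pair, had at most 6 and 2 counts in a library and could not be compared.

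Over all called pairs, 25 ratios were higher and 13 lower in ERH than in SAFB. The sign depends on which member is named first, so this split has no direction of its own. Of the named pairs, the largest difference was mir-181b to mir-181a, a pair of related miRNAs known in lymphoid cells. The ratio ran from -2.67 to -2.34 with a median of -2.49 in the ERH libraries and from -4.82 to -4.41 with a median of -4.64 in the SAFB libraries, with -1.45 ± 0.13 (SD, n = 6) in the control libraries. The difference was 2.12 (exact permutation test, adjusted p = 0.00595). mir-181b stood at 651 to 874 CPM (median 709.9) in the ERH libraries and 147 to 259 CPM (median 189) in the SAFB libraries, without overlap. Its log2 fold change was 1.92 ± 0.12 (SE, adjusted p = 6.59e-12), while mir-181a, at a median of 4002 and 4539.5 CPM, was not called (-0.18 ± 0.10, adjusted p = 0.195, edgeR).

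mir-29c, of a family known to repress extracellular matrix genes, was also higher in ERH than in SAFB, relative to mir-29b. Its level was 1369 to 1839 CPM (median 1802) in the ERH libraries and 466 to 659.7 CPM (median 543) in the SAFB libraries, without overlap, and 3562 to 4231 CPM in control, with a log2 fold change of 1.62 ± 0.09 (SE, adjusted p = 6.59e-12). The ratio of mir-29b to mir-29c ran from 0.69 to 1.42 with a median of 0.80 in the ERH libraries and from 2.06 to 2.64 with a median of 2.51 in the SAFB libraries, a difference of -1.56 (exact permutation test, adjusted p = 0.00595). Against control mir-29c fell by 2.83 on the log2 scale in SAFB and by 1.21 in ERH. mir-29b itself was not called under TMM (0.07 ± 0.10, adjusted p = 0.605, edgeR), and was called higher with scaling by totals (0.33, adjusted p = 0.00651) and by spike-ins (0.62, adjusted p = 0.0179). The ratio of mir-29b to mir-29a, from the other cluster of that family, missed the threshold (adjusted p = 0.244, exact permutation test). The entry mir-29b sums a copy on chromosome 1, beside mir-29c, and a copy on chromosome 6, beside mir-29a. Each of these ratios therefore mixes 2 loci.

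mir-192, a miRNA known from gut and kidney, was at 100.2 to 228 CPM (median 135) in the ERH libraries and 34.4 to 57.7 CPM (median 44.0) in the SAFB libraries, without overlap, with a log2 fold change of 1.82 ± 0.19 (SE, adjusted p = 6.21e-08). Control libraries held 372 to 473 CPM. The ratio of mir-194 to mir-192 was 0.33 ± 0.62 in ERH and 1.89 ± 0.25 in SAFB (SD, n = 6), a difference of -1.57 (exact permutation test, adjusted p = 0.00595). mir-194 was not called under TMM (0.21 ± 0.11, adjusted p = 0.134, edgeR), and was called higher with scaling by totals (0.47, adjusted p = 0.000407) and by spike-ins (0.75, adjusted p = 0.0077). It has a second copy beside mir-215, so that ratio mixes 2 loci.

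mir-421, in an intron of Ftx, was compared with mir-374b, and both have a single gene copy. The ratio ran from -1.16 to -0.53 with a median of -0.98 in the ERH libraries and from -2.95 to -2.13 with a median of -2.67 in the SAFB libraries, and was -1.02 ± 0.14 (SD, n = 6) in the control libraries. The difference was 1.73 (exact permutation test, adjusted p = 0.00595). mir-421 stood at 56.6 to 74.8 CPM (median 65.9) in the ERH libraries and 22.2 to 31.8 CPM (median 23.4) in the SAFB libraries, without overlap, with a log2 fold change of 1.43 ± 0.11 (SE, adjusted p = 5.29e-10). Control libraries held 177 to 213 CPM. mir-374b was at 107 to 151 CPM in ERH, 137 to 183 CPM in SAFB and 367 to 408 CPM in control, and was called lower in ERH than in SAFB under TMM (-0.30 ± 0.10, adjusted p = 0.0158, edgeR). In ERH both members were below control, by 1.51 for mir-421 and 1.61 for mir-374b on the log2 scale, so their ratio stayed close to that of control (difference 0.11). In SAFB mir-421 fell by 2.94 and mir-374b by 1.32, and the ratio was 1.62 below control.

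mir-23b followed this order on a smaller scale. Its ratio to mir-27b, 154 bp away, was -2.70 ± 0.13 in ERH, -3.33 ± 0.12 in SAFB and -2.83 ± 0.09 in control (SD, n = 6). The difference between knockouts was 0.63 (exact permutation test, adjusted p = 0.00595). mir-27b was at 3913 to 5221 CPM in ERH, 3722 to 4419 CPM in SAFB and 6826 to 8274 CPM in control. The mir-23b to mir-24 ratio differed more, by 0.96 (exact permutation test, adjusted p = 0.00595), without overlap. It was -1.17 in ERH, -2.13 in SAFB and -0.98 in control. mir-24 to mir-27b was called lower in ERH (-0.33, adjusted p = 0.0198, exact permutation test). In all, 5 of 6 pairs of this chain were called. The level of mir-23b was 682 to 737 CPM (median 696) in the ERH libraries and 376 to 448 CPM (median 394) in the SAFB libraries, without overlap, with a log2 fold change of 0.79 ± 0.06 (SE, adjusted p = 1.27e-09). In the paralogous cluster the ratio of mir-27a to mir-23a missed the threshold (difference 0.00, adjusted p = 0.983, exact permutation test), while mir-23a to mir-24 (0.21, adjusted p = 0.00595, without overlap) and mir-27a to mir-24 (0.21, adjusted p = 0.0198) were called higher in ERH. The entry mir-24 sums copies in both clusters.

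**Figure D3:**
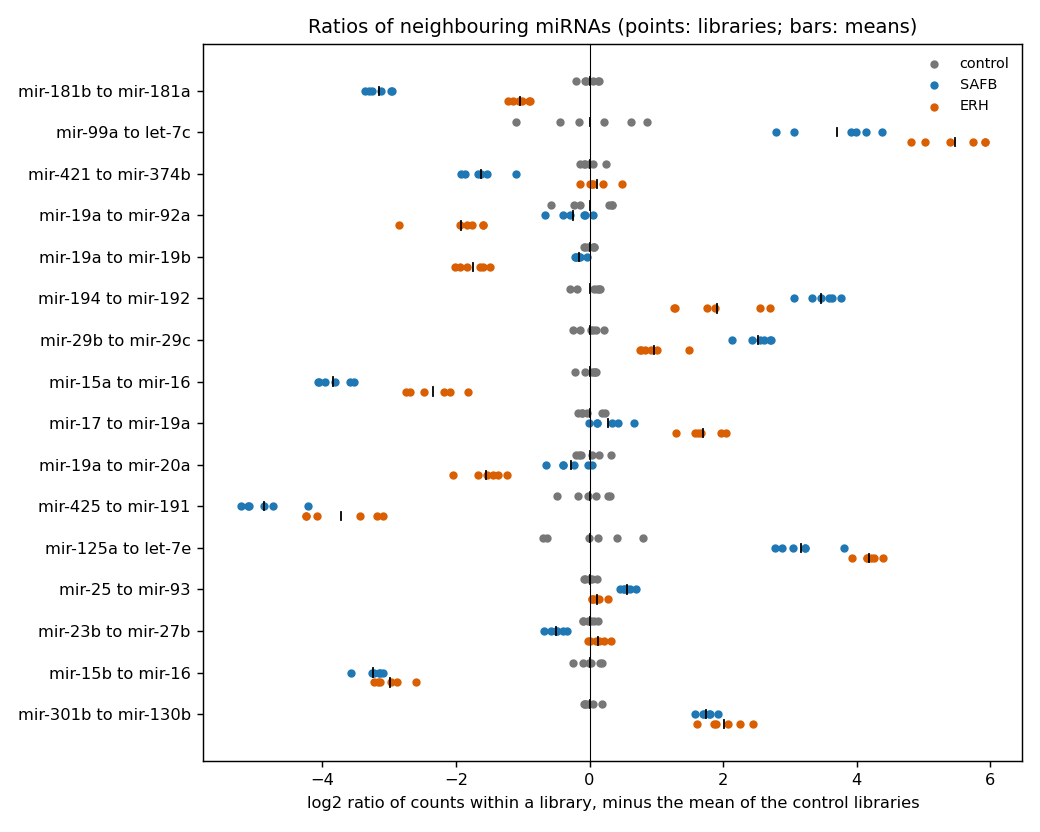
Log2 count ratios of 16 neighbouring pairs in each library, less the mean of the control libraries (grey control, blue SAFB, orange ERH; bars are means of 6). The mir-181b, mir-15a, mir-425, mir-421 and mir-23b ratios lie further left in SAFB than in ERH, the mir-19a ratios lie apart in ERH, and the mir-15b to mir-16 and mir-301b to mir-130b ratios overlap.

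Within the mir-17-92 polycistron, a cluster of 6 growth-promoting miRNAs, the members moved in both directions under TMM. mir-92a (0.54, adjusted p = 0.000137), mir-19b (0.43, adjusted p = 0.000378) and mir-17 (0.26, adjusted p = 0.019) were higher in ERH than in SAFB, mir-19a and mir-18a were lower, and mir-20a was not called (0.11, adjusted p = 0.276, all edgeR). With scaling by totals and by spike-ins mir-20a was called higher as well (0.38 and 0.64, adjusted p = 0.000663 and 0.012, edgeR). mir-19a was at 1186 to 2029 CPM (median 1691) in the ERH libraries and 2963 to 4229 CPM (median 3692) in the SAFB libraries, without overlap, with a log2 fold change of -1.15 ± 0.12 (SE, adjusted p = 6.21e-08), and -0.61 under spike-in scaling. Of the summed counts of the 6 miRNAs, mir-19a took 4.58% ± 0.746 in ERH, 11.8% ± 1.03 in SAFB and 13.5% ± 1.28 in control (SD, n = 6). The ratio to mir-20a, 75 bp away and in single copy like mir-19a, ran from -3.12 to -2.31 with a median of -2.56 in the ERH libraries and from -1.73 to -1.03 with a median of -1.38 in the SAFB libraries. That difference was -1.27 (exact permutation test, adjusted p = 0.00595), with -0.28 in SAFB and -1.55 in ERH against control.

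Its upstream neighbour mir-18a also had a lower share in ERH. Its level was lower by 0.45 on the log2 scale under TMM (adjusted p = 0.000904, edgeR), with overlapping groups, and its log2 fold change was 0.08 under spike-in scaling. It took 1.24% ± 0.143 of the cluster in ERH and 1.97% ± 0.260 in SAFB, and its ratio to mir-17 differed by -0.72 (exact permutation test, adjusted p = 0.00595). The ratio of mir-17 to mir-20a moved by 0.15 (exact permutation test, adjusted p = 0.0338), a small shift next to that of mir-19a. mir-92a to mir-19b, neighbours at the 3′ end, missed the threshold (adjusted p = 0.752, exact permutation test). Both entries also sum a copy on chromosome X, so this ratio and the cluster shares mix 2 loci. In all, 11 of 15 pairs within this chain were called, beside 57.6% of all 66 pairs.

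**Figure D4:**
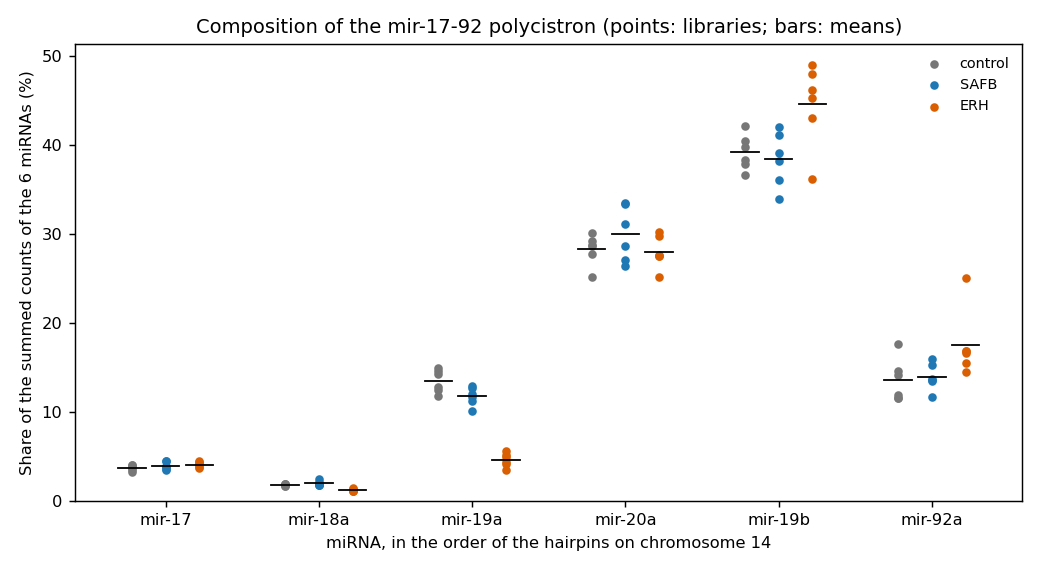
Share of each miRNA in the summed counts of the mir-17-92 polycistron, in genomic order; points are libraries and bars are means of 6. The mir-19a share lies at 3.48% to 5.55% in ERH and at 10.1% to 12.9% in SAFB, and mir-18a is also lower in ERH. The mir-19b and mir-92a entries also sum copies on chromosome X.

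In the Mcm7 cluster mir-25 was lower relative to mir-93 in ERH than in SAFB. The ratio ran from -0.50 to -0.26 with a median of -0.44 in the ERH libraries and from -0.07 to 0.16 with a median of 0.00 in the SAFB libraries, and was -0.53 ± 0.07 (SD, n = 6) in the control libraries. The difference was -0.45 (exact permutation test, adjusted p = 0.00595), from 0.56 in SAFB and 0.11 in ERH against control. mir-106b to mir-93 in the same transcript missed the threshold (adjusted p = 0.69, exact permutation test).

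In the mir-322 to mir-450 cluster on chromosome X, 8 of 15 pairs were called, near the 57.6% of all 66 pairs. The largest differences were those of mir-450a, an entry that sums 2 gene copies. Its ratio to mir-503 was higher in ERH by 0.89 (exact permutation test, adjusted p = 0.00595), without overlap. The differences to mir-351 and mir-322 were 0.82 and 0.81, with overlapping groups. mir-450a was at 55.1 to 84.1 CPM in ERH and 31.5 to 45.9 CPM in SAFB. mir-542 to mir-503 was -0.34 ± 0.09 in ERH and -0.89 ± 0.12 in SAFB (SD, n = 6), beside -1.38 ± 0.09 (SD, n = 6) in the control libraries. The difference was 0.55 (exact permutation test, adjusted p = 0.00595). mir-503 to mir-322, 200 bp apart, missed the threshold (adjusted p = 0.457, exact permutation test). The mir-98 to let-7f ratio was lower by 0.27 in ERH relative to SAFB (exact permutation test, adjusted p = 0.00595), and against control it was lower by 1.71 in SAFB and by 1.98 in ERH. mir-98 shares the let-7 seed, so reads could be misassigned, and the entry let-7f sums 2 gene copies.

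28 pairs were not called, and in some of these both knockouts lay away from control. The mir-301b to mir-130b ratio went from -2.56 ± 0.10 in control to -0.81 ± 0.12 in SAFB and -0.53 ± 0.30 in ERH (SD, n = 6). The difference between knockouts was 0.27 (exact permutation test, adjusted p = 0.104). let-7a to let-7f shifted by 0.56 in SAFB and 0.56 in ERH, with a difference of 0.00, and each of these entries sums 2 gene copies. mir-222 to mir-221 and let-7b to let-7c differed by -0.03 and -0.01.

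In 3 pairs a let-7 miRNA has a neighbour that was scarce in control and higher in ERH than in SAFB: mir-99a was at 31.0 to 57.8 CPM (median 52.5) in the ERH libraries and 8.60 to 24.7 CPM (median 17.1) in the SAFB libraries and mir-125a at 223 to 327 CPM (median 307) in the ERH libraries and 93.8 to 200.3 CPM (median 105) in the SAFB libraries, each without overlap. The mir-99a to let-7c difference was 1.76 (exact permutation test, adjusted p = 0.00595), the mir-125a to let-7e difference 1.02 and the mir-99b to let-7e difference 0.83. Control libraries sat lower than both knockouts in these ratios, by 3.71 (SAFB) and 5.47 (ERH) for mir-99a to let-7c. let-7c has 2 gene copies and mir-99a lies beside 1 of them.

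Shares of some members within seed families also separated the knockouts, while those within the mir-17 family overlapped. In that family mir-93 made up 60.0% to 70.0% in ERH and 64.1% to 74.1% in SAFB. mir-181b made up 13.5% to 16.4% of the mir-181 family in ERH, 3.42% to 4.49% in SAFB and 24.1% to 28.7% in control. mir-29c made up 7.40% ± 0.790 of its family in ERH and 2.42% ± 0.286 in SAFB (SD, n = 6). mir-19a made up 9.32% ± 1.21 and 23.5% ± 0.835 of the mir-19 family. mir-92a was 26.5% ± 4.07 of the mir-25 family in ERH and 13.9% ± 0.786 in SAFB.

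**Figure D5:**
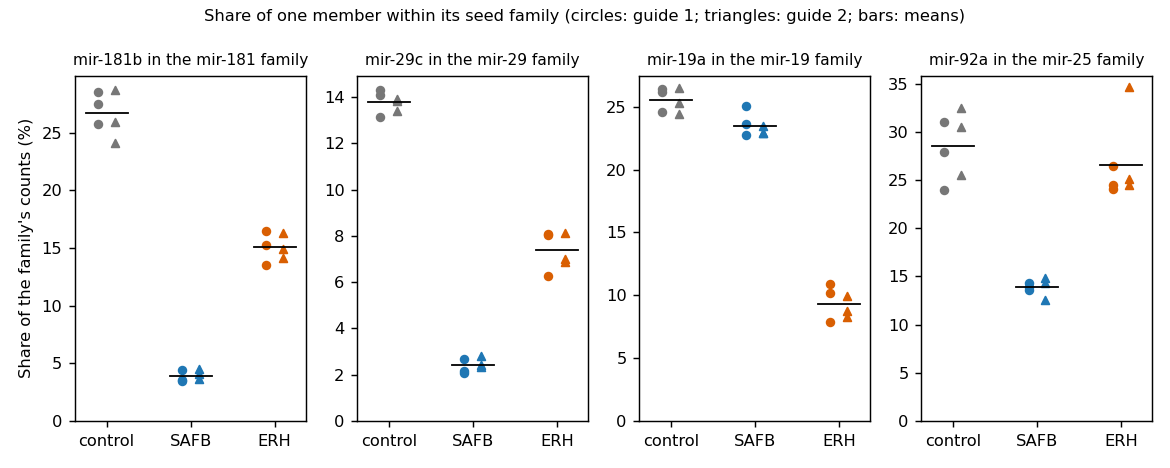
Share of 1 member in the counts of its seed family, per library (circles guide 1, triangles guide 2, bars means of 6). Knockouts do not overlap for mir-181b, mir-29c, mir-19a and mir-92a: the first, second and last are higher in ERH and mir-19a is higher in SAFB.

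Among calls at 100 CPM or more without overlap and outside the called pairs, those highest in ERH relative to SAFB were rare in control. They rose in both knockouts. mir-218, carried in introns of the Slit genes, was at 370.3 to 1411 CPM (median 847) in the ERH libraries and 149.8 to 253 CPM (median 219) in the SAFB libraries, without overlap, and 16.6 to 29.6 CPM in control. Its log2 fold change was 2.03 ± 0.27 (SE, adjusted p = 4.24e-06). The ERH populations differed in it, with 1018 to 1411 CPM for guide 1 and 370.3 to 676 CPM for guide 2 (-1.41, adjusted p = 0.00163, edgeR), and the log2 fold change against SAFB ran from 1.14 to 2.60 over the 4 population comparisons. mir-9, a miRNA known from the nervous system, was at 195 to 376 CPM (median 240.2) in the ERH libraries and 51.6 to 107 CPM (median 59.1) in the SAFB libraries, without overlap, with a log2 fold change of 1.98 ± 0.23 (SE, adjusted p = 3.91e-07). Each of these is in the neuron marker list.

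Other named miRNAs among the highest calls were also rare in control. mir-10a, beside the Hoxb genes, was at 717 to 1512 CPM (median 1014) in the ERH libraries and 193 to 530.0 CPM (median 334) in the SAFB libraries, without overlap, with a log2 fold change of 1.55 ± 0.22 (SE, adjusted p = 8.97e-06). mir-196a and mir-196b had log2 fold changes of 1.41 ± 0.22 and 1.29 ± 0.19, with no overlap of libraries. mir-148a, mir-182, mir-125b and mir-151 had 1.40 ± 0.22, 1.32 ± 0.18, 1.30 ± 0.16 and 1.25 ± 0.22, with adjusted p from 1.16e-06 to 8.84e-05 in edgeR. Against control these 9 rose by 4.43 to 5.30 in ERH and by 2.87 to 3.46 in SAFB. mir-34a reached 2.16 but its groups overlapped.

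Of the 5 neuron markers in the counts, 4 were tested and 3 were higher in ERH, beside 23.8% of all tested miRNAs and 31 of 107 among those under 10 CPM in control. They are mir-9 and mir-218, named above because they were among the highest calls, and mir-129, which was at 1.92 to 4.41 CPM in ERH. mir-128 was not called under TMM (-0.03 ± 0.08), and was called higher with scaling by totals (0.24, adjusted p = 0.00804, edgeR). The summed level of the 5, in CPM without TMM, was 3259.9 to 5013 in ERH, 2356 to 2827 in SAFB and 1743 to 2062 in control. Most of each sum is mir-128, at 2574 to 3119 in ERH and 2046 to 2631 in SAFB, so the sum is no measure of the other markers. mir-124, the defining neuron miRNA, had at most 6 counts in an ERH library and 2 in a SAFB library. mir-122 of liver was at 8.19 to 40.8 in ERH and 5.82 to 14.5 in SAFB, and was called higher with scaling by totals and by spike-ins (0.84 and 1.15, adjusted p = 0.0465 and 0.00178, edgeR) but not under TMM (0.56, adjusted p = 0.189). Of the epithelial markers 4 were tested and 2 were lower in ERH under TMM, mir-200a (-0.50, adjusted p = 0.000673, without overlap) and mir-200c (-0.55, adjusted p = 0.0122), beside 15.8% lower over all tested; neither was called with scaling by totals or spike-ins (0.06 and -0.04 under spike-ins, adjusted p = 0.857 and 0.922, edgeR). No tested erythroid, endothelial, muscle or mesenchymal marker was called under TMM in edgeR, and the smallest adjusted p among them was 0.0877, for mir-126a of endothelium (-0.13). mir-199a, a mesenchymal marker, was called higher with scaling by totals (0.53, adjusted p = 0.029, edgeR) and by spike-ins (0.81, adjusted p = 0.0244). mir-206 of muscle had no count. The part of other cell types in these results was not tested.

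The lower calls under TMM lay mostly at high levels, with 27 of the 43 at 1000 CPM or more in control. mir-223, known from myeloid cells, was at 7453 to 13078 CPM (median 8354) in the ERH libraries and 15012 to 21060.5 CPM (median 16992) in the SAFB libraries, without overlap, with a log2 fold change of -0.92 ± 0.15 (SE, adjusted p = 3.41e-05), and -0.38 (adjusted p = 0.147, edgeR) under spike-in scaling. ERH libraries overlapped the control range of 7512 to 13202 CPM, and the SAFB level was 0.86 above control on the log2 scale. In control, the batch 3 libraries were at 12807 and 13202 CPM and the other batches at 7512 to 8276 CPM. ERH guide 1 was at 13078 CPM in batch 3 and at 7913 and 7975 CPM in the other batches. ERH guide 2 batch 3 was at 8732 CPM. mir-25 measured 15564 to 18467 CPM (median 16646) in the ERH libraries and 22622 to 28714 CPM (median 26711) in the SAFB libraries, without overlap, with a log2 fold change of -0.65 ± 0.06 (SE, adjusted p = 1.83e-08), which was -0.10 under spike-in scaling.

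mir-16, at 202015 to 242040.0 CPM in ERH and 291469 to 329007 CPM in SAFB, was lower in ERH by 0.49 ± 0.05 on the log2 scale under TMM, and not under spike-in scaling (0.06). mir-146b, an inflammation-linked miRNA, differed by -0.53 ± 0.08 (SE, adjusted p = 8.59e-06) under TMM and by -0.0074 (adjusted p = 0.981, edgeR) under spike-in scaling. mir-101b, mir-532, mir-98, mir-872, mir-598, mir-449a and mir-21a had log2 fold changes from -0.43 to -0.38 under TMM, with no overlap, and from 0.09 to 0.16 under spike-in scaling, where they turned. Their direction is therefore relative to the scaling. With scaling by totals, mir-16 (-0.23), mir-25 (-0.38), mir-223 (-0.66), mir-146b (-0.27) and mir-101b (-0.17) stayed called lower (adjusted p from 1.24e-06 to 0.0104, edgeR).

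Lists were counted under TMM, beside 15.8% lower calls over all tested miRNAs and 27 of 65 among those at 1000 CPM or more in control, where most members of both lists lie. Of 9 tested members of the let-7 list 1 was higher and 5 lower, and of 10 tested haematopoietic miRNAs 1 was higher and 5 lower (median log2 fold changes -0.15 and -0.17, against 0.04 over all tested). Whether these lists differ from other miRNAs of the same level was not tested. let-7j, which is not in the list and was added after its value was seen, was also lower (-0.29, adjusted p = 7.61e-05, edgeR) and not called under spike-in scaling (0.26). None of the lower calls in the lists held under spike-in scaling. Of the Drosha-independent miRNAs, mir-320 (0.20 ± 0.14), mir-484 (0.04 ± 0.15) and mir-877 (-0.02 ± 0.26) were tested and none was called under TMM (log2 fold change ± SE, smallest unadjusted p = 0.15 in edgeR). mir-320 was called higher with scaling by totals (0.47, adjusted p = 0.011) and by spike-ins (0.74, adjusted p = 0.0109), and mir-484 with spike-ins (0.58, adjusted p = 0.0394, edgeR). The list of lymphoid and general blood miRNAs summed to 136285 to 160556 CPM (without TMM) in ERH and 130677 to 153278 in SAFB libraries. Nearly all of it is mir-142a, found across blood cells, at 130795 to 154341 in ERH and 124107 to 147080 in SAFB, and mir-150, a lymphocyte miRNA, was at 5.63 to 14.2 in ERH, 1.42 to 6.04 in SAFB and 13.4 to 23.7 in control, so the sum does not check the pro-B label. The embryonic stem markers had too few counts to be tested. mir-302a had at most 3 counts in an ERH library and 10 in a SAFB library, at up to 3.52 CPM in control, and the others were at 0. mir-302b, which is not in that list and was added after its value was seen, was at 0.256 to 1.68 CPM in ERH and 1.22 to 3.17 CPM in SAFB, and was called lower in ERH under TMM (-1.41 ± 0.40, adjusted p = 0.00747, edgeR) but not under spike-in scaling (-0.90, adjusted p = 0.193).

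Calls were also counted by genomic setting and hairpin shape, as a description. Of 76 tested miRNAs with a tested neighbour, 23 were higher and 19 lower, and of 187 without one 41 and 24. Single-copy miRNAs with no host on their strand were higher in 20 of 66 cases and lower in 4, those in host exons in 10 and 13 of 61, and those in host introns in 23 and 19 of 106. Over all tested the shares were 23.8% higher and 15.8% lower, and differences between these groups were not tested. Median folding energy per base was -0.438 kcal/mol over the 54 higher calls with a hairpin, -0.430 over the 41 lower and -0.424 over all 231.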

How the data were processed

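Small RNA libraries of 18 Baf3 samples were compared, here 6 ERH and 6 SAFB knockout libraries with 6 controls. The deposited values are raw read counts per miRNA entry, with 4 spike-ins left out of library sizes and tests. SAMtools is named per the submitters' processing notes; aligner, build, annotation and the collapsing of molecular identifiers are not given in the sources used here, so reads cannot be taken as independent molecules. The main test was edgeR's glmQLFTest (edgeR 4.0.16, limma 3.58.1, R 4.3.3) over all 18 libraries, TMM scaling, filterByExpr (minimum count 10) and Benjamini-Hochberg adjustment at 0.05. CPM was computed here from the deposited counts. Ratios used log2 counts with pseudocount 0.5 and pairs with a mean of at least 100 counts within 10 kb, tested by exact permutation (scipy 1.17.1). Hairpins were folded with RNAfold 2.7.2. GENCODE M21 positions matched 956 of 1006 entries and RefSeq hairpins 837.

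Names were chosen by rule: the assisted miRNAs, their clusters, the 12 highest and 12 lowest calls at 100 CPM or more without overlap, and 12 pairs; mir-34a, let-7j and mir-302b were chosen after their values were seen. Members and lists were chosen with earlier results of these data known. Libraries of 1 population share their edited cells, so p-values measure library spread. Batch labels pair libraries: deviations correlated by 0.011 within and -0.0051 between batches over 153 miRNAs, so the batch block is an alternative. Duplicate libraries were not found (chi-square per degree of freedom 28.0 to 162). Alternatives were DESeq2 1.42.0, other scalings, no filter, 12 libraries, population sums, left-out libraries and populations, other pseudocount, count and distance minima, and single spike-ins. The edgeR script was tested on simulated data.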

Additional observations from a re-analysis of the deposited data

Results flagged for a closer look

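Of 80 groups of 6 values examined, 6 held a library far from the other 5. Chance gives about 1 in 20 for independent groups. These groups share libraries, so their number cannot be set against that rate. SAFB guide 1 batch 1 was high in 3 of the miRNAs that were rare in control: mir-9 at 6.75 log2 CPM against 5.70 to 6.02 in the other SAFB libraries, mir-196a at 7.30 against 6.08 to 6.53, and mir-148a at 8.77 against 7.65 to 8.06. That library was also the highest SAFB library for mir-182 (76.5 CPM against 35.8 to 58.2) and mir-183 (68.9 against 24.2 to 35.7). The same held for mir-196b (186 against 96.8 to 127) and mir-151 (85.5 against 42.1 to 67.4). For mir-10a and mir-125b another SAFB library was highest. The log2 fold change in ERH against SAFB was 0.71, 1.39 and 1.90 in batches 1, 2 and 3 for mir-182, and 0.28, 1.37 and 1.85 for mir-183. mir-146b in SAFB guide 2 batch 3 was 12.73 against 12.45 to 12.55. The mir-19a to mir-92a log2 ratio in ERH guide 2 batch 3 was -2.85 against -1.94 to -1.60. The mir-29b to mir-29c log2 ratio in ERH guide 1 batch 3 was 1.42 against 0.69 to 0.94. The causes of these values were not tested.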

How the results depend on the processing

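Of 878 values of 39 named results under the alternatives, 837 kept their direction and side of the threshold, 25 lost the call, 4 gained one and 12 turned. Scaling had the largest effect on direction. Higher calls numbered 115 under total counts and 111 under spike-in counts, and lower calls 8 and 1; leaving out the ERH guide 1 population gave 26 lower calls. With spike-in scaling the log2 fold changes turned to 0.055 (mir-16), 0.13 (mir-101b), 0.11 (mir-532), 0.093 (mir-98), 0.13 (mir-872), 0.15 (mir-598), 0.14 (mir-449a), 0.16 (mir-21a), 0.31 (mir-15b) and 0.33 (mir-191). With total counts they turned to 0.022 (mir-15b) and 0.034 (mir-191). Within-cluster calls numbered 19 of 35 pairs among single-copy miRNAs, where fewer pairs were tested, and 25 without the SAFB guide 1 population, where fewer libraries were tested. The miRNA to spike-in difference was 0.54 without ERH guide 1 (exact permutation p = 0.0119) and -0.050 without ERH guide 2 (p = 0.702, exact permutation test); the cause was not tested. Leaving out single libraries gave 92 to 111 calls (60 to 67 higher, 32 to 47 lower), 37 to 41 called pairs, a mir-15a to mir-16 difference of 1.40 to 1.58 and a spike-in difference of 0.14 to 0.37. With the replicate block by batch, 110 miRNAs (67 higher, 43 lower) and 39 pairs were called, the mir-15a to mir-16 ratio, ERH minus SAFB, kept its call (adjusted p = 0.0197, exact permutation test), and the block changed no call among the named results. DESeq2 gave 110 calls, and sums per population 95. Depth limits the rarest entries: mir-451a and mir-144 could not be compared.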
